A study of Mus musculus with 2 samples.

Results

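Mast cells and neutrophils both store proteases and antimicrobial proteins in granules, and 10 genes of these granules were followed in the newborn mouse stomach. The 5 mast cell genes were Tpsb2, Cma1, Cpa3, Mcpt4 and Ms4a2, and the 5 neutrophil genes were Ltf, Ngp, Camp, Mpo and Elane. They were matched by Ensembl ID to gene symbols, and all 10 were present among the 43346 genes with such an ID in each of the deposited gene tables. The samples were whole stomachs of 2 pups of strain B6NCrl, pup 2 and pup 1, from the same dam on the day of birth (age 0 days). Their sex was not collected, and no allele, agent or treatment is named for either. Total RNA was sequenced in 1 library per pup, from 10 ng of RNA, and summed expected counts came to 49983574 for pup 2 and 51524479 for pup 1. Since the labels name 1 group, the data describe levels in the newborn stomach and how far these pups differ. With 1 library per pup a difference between them has no replicate check, and no p-value was computed.

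Mast cells mature in tissues under the growth factor receptor Kit. The granules of the connective tissue type hold tryptase, chymases and carboxypeptidase A bound to heparin, whereas in the mouse the mucosal type, common in the gut lining, is known for the chymases Mcpt1 and Mcpt2. Antigen bound by IgE on the high-affinity IgE receptor triggers their release. Neutrophils make their granules in order while they mature in blood-forming tissue: primary granules carry elastase and myeloperoxidase, and secondary granules, made later, carry lactoferrin, cathelicidin and neutrophilic granule protein. Circulating neutrophils therefore hold little RNA of the primary granule genes. Lactoferrin is also a known product of glandular epithelium, in milk and other secretions.

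Several of these proteases have close relatives beside them in the genome, so the sequences that tell them apart are shown first. The stretches below are the 60 coding bases, within 1 exon, in which each mast cell protease and its relative differ least, read from GENCODE M21 transcripts on mm10 with differing bases in capitals. Each is written 5′ to 3′ on the strand of its gene. The tryptase Tpsb2 (exon 5, chr17:25367721-25367780, plus strand) and its neighbour Tpsab1 (exon 5, chr17:25343485-25343544, minus strand) differed at 3 of these bases, and the chymase Mcpt4 (exon 3, chr14:56061011-56061070, minus strand) and the mucosal chymase Mcpt1 (exon 3, chr14:56019015-56019074, plus strand) at 4.
Tpsb2: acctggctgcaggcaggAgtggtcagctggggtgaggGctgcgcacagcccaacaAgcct
Tpsab1: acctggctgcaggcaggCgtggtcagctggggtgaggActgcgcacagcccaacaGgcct
Mcpt4: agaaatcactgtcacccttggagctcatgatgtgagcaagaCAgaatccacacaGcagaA
Mcpt1: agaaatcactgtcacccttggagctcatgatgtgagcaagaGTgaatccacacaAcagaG

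Over the aligned coding sequence, Mcpt4 matched Mcpt1 at 86.4% of bases, Mcpt9 at 84.0% and Mcpt2 at 79.4%, and Tpsb2 matched Tpsab1 at 75.7%. The other pairs were further apart, at 67.6% for Cma1 and Mcpt4, 63.8% for Cma1 and its neighbour Cma2, 63.5% for Elane and its neighbour Prtn3, and 52.9% for Ngp and Camp. At the length of a read the members were nearly unique. In the most-read transcript of each, no stretch of 100 bases of Tpsb2, Cma1, Cpa3, Ltf, Ngp, Camp or Elane occurred in any transcript of another gene. In Mcpt4, 1 of 1009 such stretches was shared (with Cma2), in Ms4a2 13 of 2292 (with Ms4a4b) and in Mpo 171 of 2310, all with the antisense gene Gm11505, which had 0 counts in both pups. Without a stated strand setting, reads from that shared stretch cannot be told apart between Mpo and the antisense gene. All 10 members had whole expected counts in both libraries, as against 70.7% of the 27187 genes with any count. The posterior SD that the authors deposited for the count was 0 for every member except Mpo, where it was 0.37 reads in pup 2 and 0.29 in pup 1.

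The levels are TPM, which is per kilobase of transcript and can therefore be compared between genes. The brackets in the next paragraphs hold the authors' credibility interval of TPM, which covers quantification error within a library. The sources used here do not state its level, and for the 5 members with a mean of at least 100 counts its half-width was between 1.93 and 2.21 times the counting error of their reads, close to that of a 95% interval. Detection means 1 TPM or more in each pup. By that limit 7 of the 10 members were detected, 4 of the mast cell genes and 3 of the neutrophil genes.

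**Figure D1:**
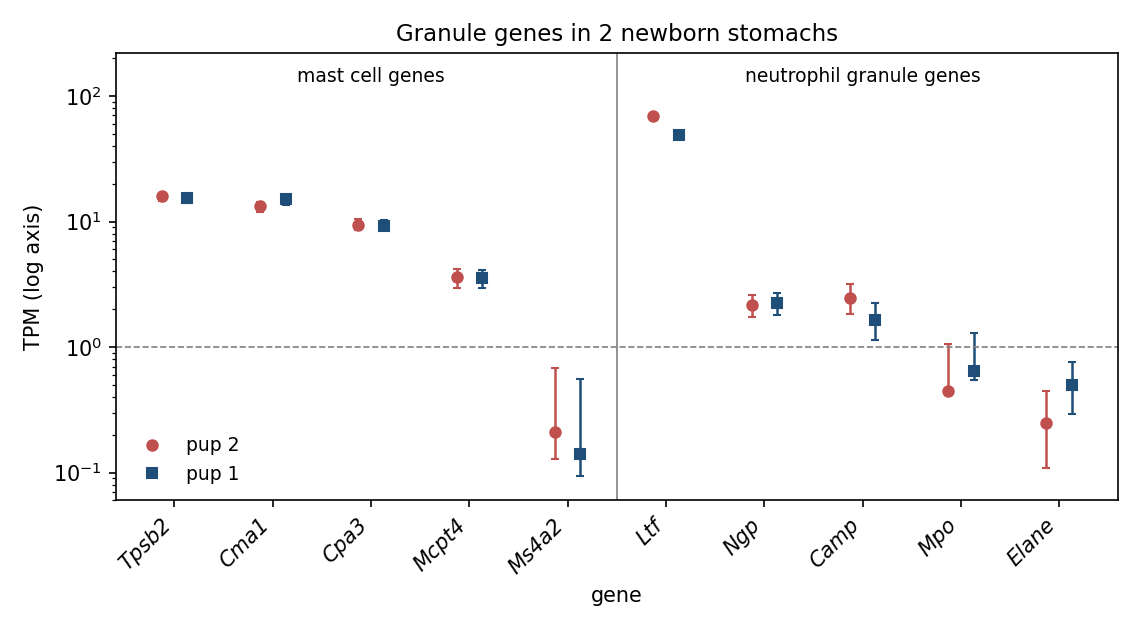
TPM (log axis) of the 10 granule genes in pup 2 (circles) and pup 1 (squares), with the deposited credibility interval as bars and the detection limit of 1 TPM as a dashed line. Ltf stands alone at 69.05 TPM in pup 2 and 49.0 TPM in pup 1, the 4 detected mast cell genes lie between 3.56 and 15.9 TPM, and Ms4a2, Mpo and Elane lie below the limit.

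Among the proteases that fill mast cell granules, Tpsb2, a tryptase (ENSMUSG00000033825.9, chromosome 17, 25366305 to 25369098, plus strand), had the highest level. It had 15.9 TPM in pup 2 [14.5 to 16.9] from 621 counts and 15.5 TPM in pup 1 [14.1 to 16.5] from 629 counts. Cma1, a chymase (ENSMUSG00000022225.6, chromosome 14, 55941451 to 55944675, minus strand), had 13.2 TPM in pup 2 [12.0 to 14.2] from 513 counts and 15.05 TPM in pup 1 [13.7 to 16.04] from 607 counts. Both genes stood above 69.4% or more of the 21461 nuclear protein-coding genes in each pup. Tpsb2 was the higher of the pair in both pups. In pup 2 the interval of Cma1 lay below that of Tpsb2, and in pup 1 the intervals overlapped.

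Cpa3, the mast cell carboxypeptidase (ENSMUSG00000001865.2, chromosome 3, 20215620 to 20242181, minus strand), had 9.30 TPM in pup 2 [8.52 to 10.4] from 499 counts and 9.28 TPM in pup 1 [8.52 to 10.3] from 518 counts. The pups were within quantification error of each other, and Cpa3 lay below Cma1 and above Mcpt4 in both, with intervals that did not overlap. Mcpt4, a chymase of connective tissue mast cells in the mouse (ENSMUSG00000061068.6, chromosome 14, 56059629 to 56062313, minus strand), had 3.59 TPM in pup 2 [2.95 to 4.17] from 127 counts and 3.56 TPM in pup 1 [2.94 to 4.13] from 131 counts. The level of Tpsb2 was thus 4.43 times that of Mcpt4 in pup 2 and 4.35 times in pup 1, and the level of Cma1 3.69 and 4.23 times that of Mcpt4.

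Ms4a2, the beta chain of the IgE receptor and the one surface protein among these 5 (ENSMUSG00000024680.8, chromosome 19, 11615523 to 11623719, minus strand), was near the limit of detection. It had 6 counts in pup 2 and 4 in pup 1, or 0.21 TPM [0.128 to 0.682] and 0.14 TPM [0.0933 to 0.554]. A count of 0 allows up to 3 counts, so Ms4a2 was seen only just above that floor. Its few reads were divided over 5 annotated transcripts, which leaves no main transcript to name. Summed over the 5 mast cell genes, the level was 42.25 TPM in pup 2 and 43.5 TPM in pup 1 (mean 42.9 ± 0.898 SD, n = 2), of which Tpsb2, Cma1 and Cpa3 together held 38.45 and 39.8 TPM. In whole-organ RNA such a sum cannot tell fewer cells of a type from less RNA per cell.

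Of the neutrophil genes, those of primary granules were low. Mpo, myeloperoxidase (ENSMUSG00000009350.9, chromosome 11, 87793581 to 87804413, plus strand), had 0.45 TPM in pup 2 [0.414 to 1.07] from 30 counts and 0.64 TPM in pup 1 [0.552 to 1.29] from 43 counts. These reads were assigned to 2 of its 6 annotated transcripts, and the one of 2409 bases held 64.3% of the gene's TPM in pup 2 and 60.9% in pup 1. Elane, neutrophil elastase (ENSMUSG00000020125.6, chromosome 10, 79886247 to 79888215, plus strand), had 0.25 TPM in pup 2 [0.110 to 0.450] from 8 counts and 0.50 TPM in pup 1 [0.291 to 0.763] from 17 counts. The intervals of Mpo and Elane overlapped in each pup, as did those of Elane and Ms4a2.

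The secondary granule genes Ngp and Camp were detected at low levels. Ngp, neutrophilic granule protein (ENSMUSG00000032484.7, chromosome 9, 110419747 to 110423012, plus strand), had 2.18 TPM in pup 2 [1.73 to 2.61] from 92 counts and 2.26 TPM in pup 1 [1.80 to 2.68] from 99 counts. Camp, the cathelicidin precursor (ENSMUSG00000038357.9, chromosome 9, 109847379 to 109849617, minus strand), had 2.47 TPM in pup 2 [1.82 to 3.20] from 49 counts and 1.64 TPM in pup 1 [1.15 to 2.24] from 34 counts. Camp was the higher of these in pup 2 and Ngp in pup 1, with overlapping intervals each time. Ngp and Camp summed to 4.65 TPM in pup 2 and 3.90 TPM in pup 1, while Elane and Mpo summed to 0.70 and 1.14 TPM.

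Ltf, which encodes the iron-binding protein lactoferrin (ENSMUSG00000032496.3, chromosome 9, 111019271 to 111042767, plus strand), stood far above the other members. It had 69.05 TPM in pup 2 [66.5 to 69.6] from 7252 counts and 49.0 TPM in pup 1 [47.1 to 49.7] from 5360 counts, all on its only annotated transcript. This placed it above 91.3% of protein-coding genes in pup 2 and 88.3% in pup 1, whereas Ngp stood above 44.3% and 45.1%. The level of Ltf was 31.7 times that of Ngp in pup 2 and 21.7 times in pup 1, and 28.0 and 29.9 times that of Camp. Ltf made up 92.8% of the summed level of the 5 neutrophil genes in pup 2 (74.4 TPM) and 90.7% in pup 1 (54.1 TPM). Without it the sums were 5.35 and 5.04 TPM, and the mast cell sum was 7.90 times this in pup 2 and 8.63 times in pup 1. Ltf and the other 4 thus differed widely in level, and the genes are called neutrophil granule genes by the rule that chose them.

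Between the pups, Ltf was the only member whose deposited intervals did not overlap. Its TPM was 1.41 times higher in pup 2 than in pup 1, a log2 ratio of 0.49 on the log2(TPM + 1) scale. The ratio of read shares was 1.39, with an exact 95% binomial interval of 1.35 to 1.45 that covers counting error only. Among 13125 detected nuclear protein-coding genes the median log2 ratio was 0.03 and the middle 95% ran from -0.34 to 0.36. Of these genes 126 (0.960%) had a log2 ratio at least as high as that of Ltf.

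For a call of a difference, a gene needed non-overlapping deposited intervals, a TPM ratio of 2-fold or more in either direction and 100 or more counts on average. By this rule 59 of 13951 genes, or 0.423%, were called, 42 higher in pup 2 (0.301%) and 17 lower (0.122%). None of the 10 members was called, and 5 of them, Tpsb2, Cma1, Cpa3, Mcpt4 and Ltf, had enough counts. At 1.5-fold none was called either, against 1.63% of all genes (1.08% higher in pup 2 and 0.552% lower). Without a fold limit, a rule added after the data were seen, Ltf alone of these 5 was called, against 12.9% of all genes called higher in pup 2, 8.33% called lower and 21.2% called in either direction. Intervals that do not overlap are thus common in this pair of libraries, and the share of members called was near the background.

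**Figure D2:**
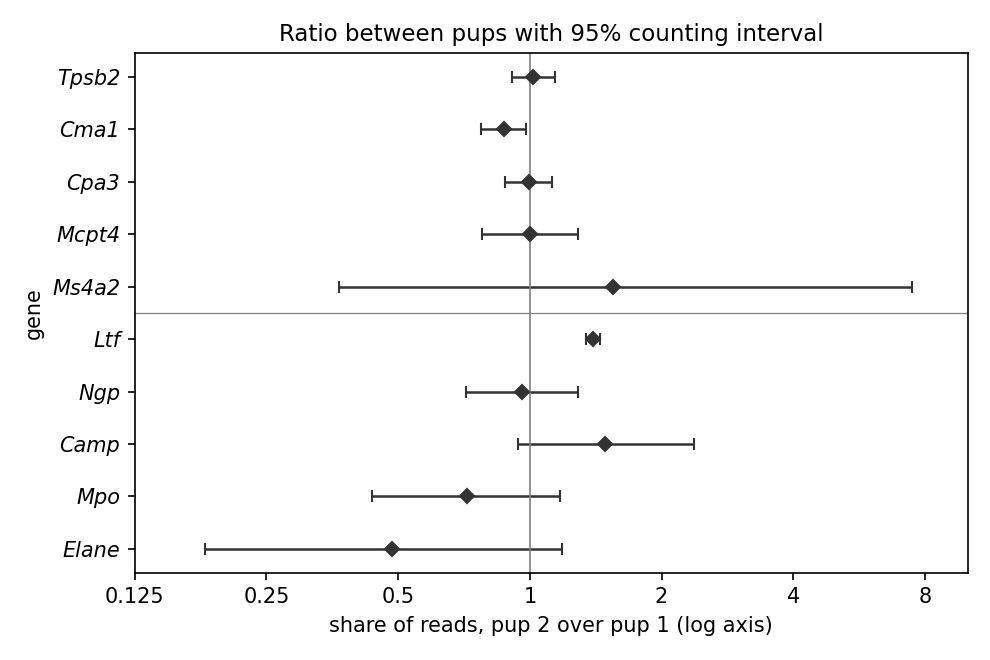
Share of a library's reads in each granule gene, pup 2 over pup 1 (log axis), with exact 95% binomial intervals that cover counting error only. The interval of Ltf lies above 1 (1.35 to 1.45), that of Cma1 just below 1 (0.773 to 0.981), and the other 8 include 1. The share of all genes whose interval excludes 1 was not computed.

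Cma1 had a ratio of read shares of 0.871, pup 2 over pup 1, with an interval of 0.773 to 0.981, but its deposited TPM intervals overlapped. The share of all genes whose counting interval excludes 1 was not computed, so no direction is given for Cma1. The ratios of Tpsb2 (1.02, 0.909 to 1.14), Cpa3 (0.993, 0.876 to 1.13) and Mcpt4 (0.999, 0.777 to 1.29) included 1, and no direction is given for them. Camp had 1.49 (0.940 to 2.37), Ngp 0.958 (0.713 to 1.29), Mpo 0.719 (0.436 to 1.17), Elane 0.485 (0.181 to 1.19) and Ms4a2 1.55 (0.367 to 7.45). With at most 49 counts in a library, the intervals of Camp, Mpo, Elane and Ms4a2 were wide. No difference between the pups was detected for any of them alone at this depth. Summed in pairs that were not among the planned results, Elane and Mpo had 0.653 (0.423 to 0.996), and Ngp and Camp 1.09 (0.856 to 1.40). The sum of Elane and Mpo rests on 38 counts in pup 2 and 60 in pup 1, and no direction is given for it. The median log2 ratio was 0.01 over the 5 mast cell genes and -0.04 over the 5 neutrophil genes, beside 0.03 over all detected genes. Over the 3 neutrophil genes with a mean TPM of at least 1 it was 0.39, so the direction of that median rests on which members are kept.

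The further mast cell genes come from lists chosen with earlier results of these libraries known. Of their 20 genes 8 had the mean of 100 counts that a call needs, and none of these was called different between the pups, against 0.423% of all genes. Of 6 other proteases only Mcpt2, a chymase of mucosal mast cells in the mouse, was detected, at 1.59 TPM in pup 2 and 1.64 TPM in pup 1. Mcpt4 stood at 2.26 and 2.17 times that level. The other mucosal chymase, Mcpt1, was read 4 times in pup 2 and 2 times in pup 1, and Mcpt9 had 0 counts in both. Tpsab1, the tryptase gene nearest in sequence to Tpsb2, had 0.52 TPM in pup 2 and 0.65 TPM in pup 1, so that Tpsb2 stood 30.6 and 23.8 times higher.

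Of 6 other receptor genes 2 were detected, Fcer1g and Kit. Fcer1g, a signalling chain that the IgE receptor shares with receptors of macrophages and other myeloid cells, had 44.04 TPM in pup 2 and 51.03 TPM in pup 1. Kit, which the pacemaker cells of gut muscle also carry, had 13.8 and 12.3 TPM. Only 7 counts in pup 2 and 10 in pup 1 fell on Fcer1a, the IgE-binding chain that with Ms4a2 marks mast cells and basophils. The alarmin receptor gene Il1rl1 had 0.36 and 0.47 TPM, and the mast cell receptor Mrgprb2 had 22 and 9 counts.

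Of 8 genes for mast cell mediators and transcription factors 6 were detected. The leukotriene C4 synthase Ltc4s led with 11.85 TPM in pup 2 and 10.8 TPM in pup 1, followed by the prostaglandin D synthase Hpgds (4.69 and 5.12 TPM) and the monoamine transporter Slc18a2 (4.34 and 3.91 TPM). Hdc, which makes histamine in mast cells and in the endocrine cells of the stomach, had 2.91 and 2.51 TPM. Macrophages are known to express Hpgds and Ltc4s, and endocrine cells Slc18a2, so these genes do not mark mast cells alone. Genes used more by basophils stayed below 1 TPM: Mcpt8 had 4 and 8 counts, Prss34 19 and 20, and Cd200r3 45 and 30.

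**Figure D3:**
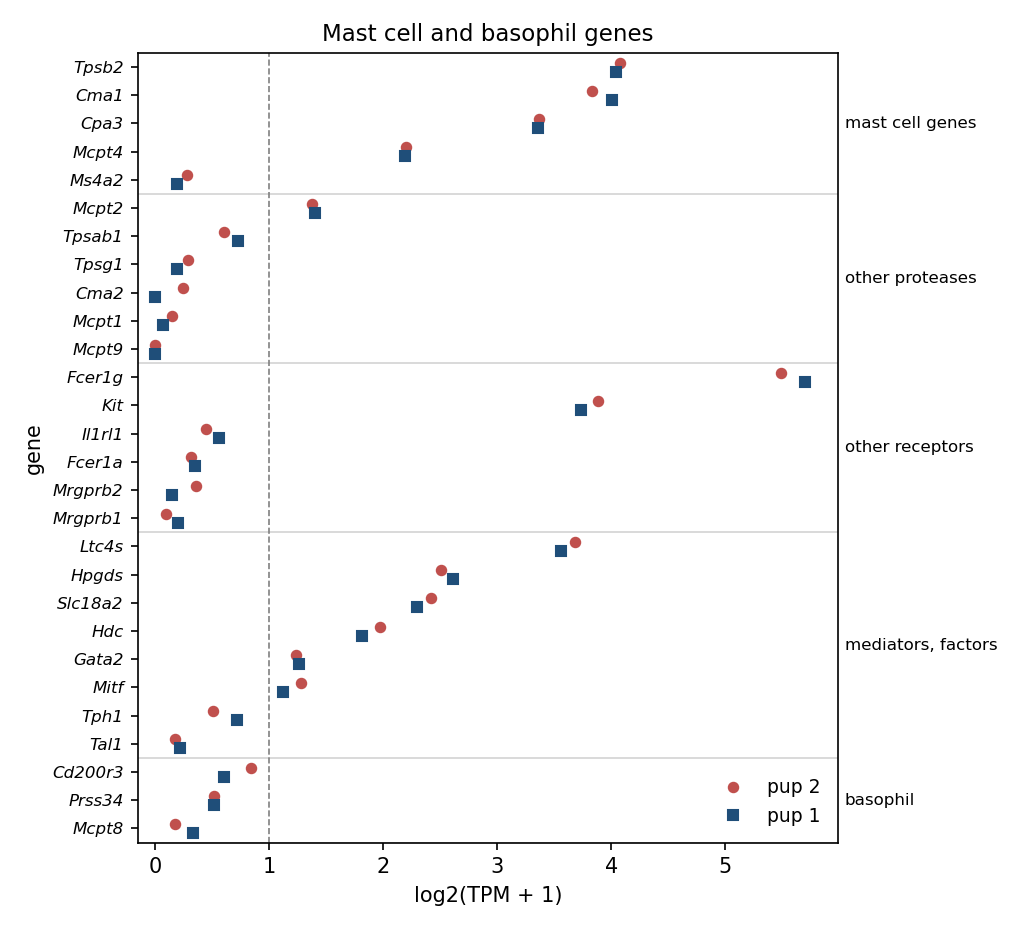
log2(TPM + 1) of mast cell and basophil genes in pup 2 (circles) and pup 1 (squares), grouped by role, with the dashed line at 1 TPM. The proteases Tpsb2, Cma1 and Cpa3 lie high while Ms4a2, Fcer1a and the mucosal chymase Mcpt1 lie near 0.

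The position of these genes gives further context. Cma1 and Mcpt4 lie in the chymase cluster of chromosome 14, and within 100 kb of Mcpt4 lie Mcpt2, Mcpt1, Mcpt9, Cma2, Mcpt8, Ctsg and the granzyme genes Gzme, Gzmd and Gzmg. Of these 9 neighbours Mcpt2 alone reached 1 TPM. Cma2, 6.3 kb from Cma1, had 6 counts for pup 2 and 0 for pup 1. In the tryptase cluster of chromosome 17, Tpsg1 lies 0.175 kb from Tpsb2 and had 0.22 TPM in pup 2 and 0.14 TPM in pup 1, and Prss28 and Prss29 had 0 counts.

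The neutrophil genes have other surroundings. Elane lies between Prtn3 (0.75 TPM in both pups) and Cfd (0 counts in both), with Prss57 (0.12 TPM in pup 2 and 0.03 TPM in pup 1) 95.3 kb away, among widely used genes such as R3hdm4, which had 145 TPM in pup 2 and 136 TPM in pup 1. Mpo lies 2.015 kb from the lactoperoxidase gene Lpo, which had 0.59 and 0.36 TPM, and 59.6 kb from the eosinophil peroxidase gene Epx, with 7 counts in each pup. Ltf has no such family beside it. Its nearest protein-coding neighbours were Ccrl2, at 1.39 TPM in pup 2 and 1.23 TPM in pup 1, and Rtp3, at 3 counts in each.

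The further neutrophil genes are given by granule. Of the 4 other primary granule genes none was detected: Prtn3, a protease related to elastase, had 0.75 TPM in both pups, Ctsg, cathepsin G, had 4 and 6 counts, and Ms4a3 had 3 in each. Among 10 other genes of secondary and tertiary granules 5 were detected. Cyba and Cybb encode the 2 membrane chains of the phagocyte oxidase, and Cyba had 207 TPM in pup 2 and 221 TPM in pup 1 against 1.54 and 1.58 TPM for Cybb. Olfm4, which gut epithelium also makes, had 59.0 and 67.2 TPM. Haptoglobin, Hp, which liver also makes, had 7.26 and 4.32 TPM.

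Lcn2, an iron-siderophore binder that in neutrophils shares the secondary granule with lactoferrin, had 1.51 TPM in both pups, from 49 and 51 counts. The level of Ltf was 45.7 times that of Lcn2 in pup 2 and 32.5 times in pup 1. The granule collagenase Mmp8 had 0.13 TPM in both pups, and the lectin Chil3 0.34 and 0.21 TPM. Thus Lcn2 stood with Ngp and Camp in level, whereas Olfm4 (59.0 and 67.2 TPM) and Cyba (207 and 221 TPM) of the same list did not. Which cells the Ltf reads came from was not tested.

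Of 8 genes of mature neutrophils 3 were detected. S100a9 and S100a8, calcium-binding proteins that squamous epithelium can also make, had 48.6 and 16.2 TPM in pup 2, against 56.2 and 20.5 TPM in pup 1. Cd177, listed here as a neutrophil surface gene, had 10.4 and 10.3 TPM, and which cells its reads came from was not tested. The surface gene Ly6g, a defining marker of mouse neutrophils, was below the floor with 1 count in pup 2 and 0 in pup 1. The chemokine receptor Cxcr2 had 12 and 19 counts, or 0.12 and 0.16 TPM, and the growth factor receptor Csf3r 20 and 18 counts, or 0.19 and 0.15 TPM. The transcription factor Cebpe, which drives secondary granule genes in neutrophil precursors, had no counts in pup 2 (0) and 4 in pup 1, Gfi1 had 2 and 5, while Cebpa (9.42 and 7.14 TPM) and Spi1 (5.50 and 6.01 TPM), which other cells use as well, were detected. Of these 26 genes 10 had the mean of 100 counts that a call needs, and none of them was called different between the pups, against 0.423% of all genes.

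**Figure D4:**
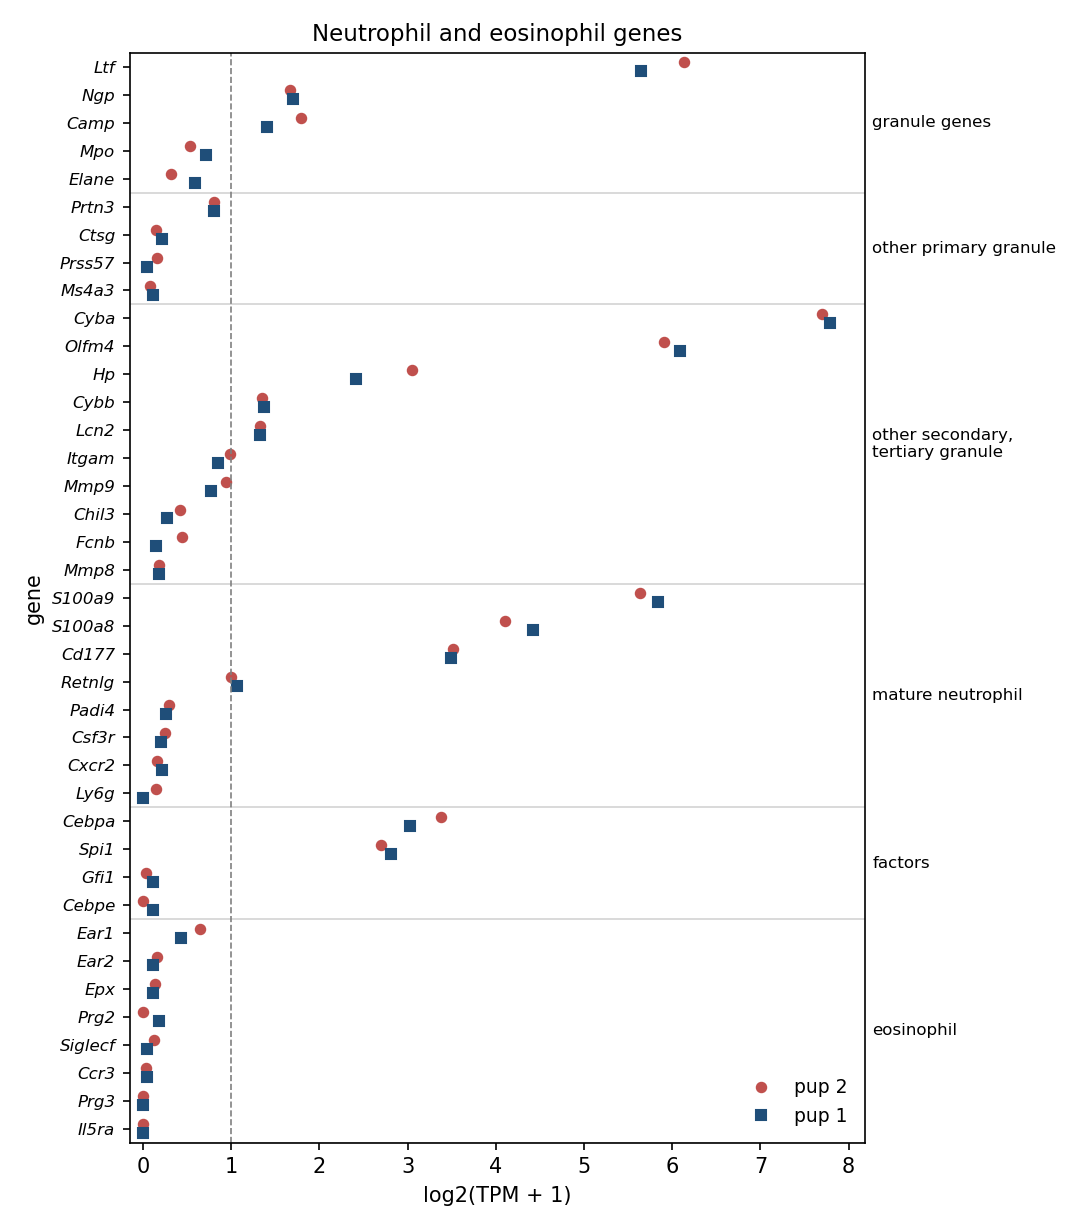
log2(TPM + 1) of neutrophil and eosinophil genes in pup 2 (circles) and pup 1 (squares), grouped by granule or stage, with the dashed line at 1 TPM. Ltf, Cyba, Olfm4, S100a9 and S100a8 lie high, whereas Ly6g, Cebpe, Ctsg and all 8 eosinophil genes lie near 0.

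Markers of other cell types, from lists chosen with earlier results known, were set beside the difference in Ltf. The tissue label held: the 8 stomach genes, led by Cym (64809 TPM in pup 2 and 59783 TPM in pup 1), Tff1 (13022 and 12874 TPM) and Gkn2 (5341 and 5460 TPM), were all detected, with a summed level of 89128 TPM in pup 2 and 83767 TPM in pup 1. All 5 liver genes were higher in pup 2, with sums of 190.3 TPM in pup 2 and 125.1 TPM in pup 1. Afp (47.1 and 20.8 TPM) and Fgb (5.21 and 2.38 TPM) were called different. Ahsg (43.6 and 24.7 TPM) and Alb (33.98 and 20.15 TPM) had intervals that did not overlap and missed only the 2-fold limit. The intervals of Ttr (60.4 and 57.1 TPM) overlapped, and it was not called. Over all genes 0.423% were called, 0.301% as higher in pup 2. All 6 erythroid genes were also higher in pup 2, with sums of 1924 and 1521 TPM. Of these the highest were Hba-a2 (815 and 646 TPM), Hbb-bs (529 and 429 TPM) and Hba-a1 (347 and 268 TPM). Macrophage genes, led by C1qb (68.3 and 69.2 TPM), Lyz2 (43.6 and 48.3 TPM) and C1qa (45.5 and 42.7 TPM), summed to 239 and 242 TPM, with 5 of 8 higher in pup 2. Platelet genes, led by Pf4 (125.4 and 170.9 TPM), summed to 152 and 185 TPM, with 3 of 5 higher, and Gp1bb had 5.74 and 5.53 TPM. Of the platelet genes only Ppbp was called, at 14.5 TPM in pup 2 and 3.82 TPM in pup 1, against the same 0.423% of all genes. The 8 mature neutrophil genes summed to 76.9 TPM in pup 2 and 88.5 TPM in pup 1, most of it S100a8 and S100a9, with 4 higher and 4 lower in pup 2 and none called. Of 5 genes of secretory epithelium 2 were higher in pup 2, among them Bpifb1 at 9811 and 9352 TPM, while Wfdc2 had 106 and 127 TPM and Reg3g 1.72 and 3.46 TPM. The part of any of these tissues in the level of Ltf was not tested.

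Promoter sequences are shown because genes of a granule are known to be switched on together by lineage factors, GATA2 in mast cells and C/EBP factors in neutrophils. RefSeq promoters of build GRCm38.p6 were matched for 9 of the 10 members. Tpsb2, the mast cell gene with the highest level, had none and was not searched. The 250 bases before each start were searched on both strands for the GATA letters AGATAA or TGATAA and for the C/EBP letters TTNNGNAA, in which N is any base. Below, the part that also lies before the start of the GENCODE gene is printed 5′ to 3′ on the gene's strand, with matches in capitals, for Cpa3 (chr3:20242182-20242431, minus), Mcpt4 (chr14:56062314-56062560, minus), Ngp (chr9:110419558-110419746, plus) and Ltf (chr9:111019042-111019270, plus).
Cpa3: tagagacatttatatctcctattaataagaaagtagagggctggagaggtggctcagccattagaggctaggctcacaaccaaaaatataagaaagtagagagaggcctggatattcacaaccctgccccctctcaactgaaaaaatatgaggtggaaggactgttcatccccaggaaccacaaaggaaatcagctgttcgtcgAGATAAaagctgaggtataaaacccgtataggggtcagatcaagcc
Mcpt4: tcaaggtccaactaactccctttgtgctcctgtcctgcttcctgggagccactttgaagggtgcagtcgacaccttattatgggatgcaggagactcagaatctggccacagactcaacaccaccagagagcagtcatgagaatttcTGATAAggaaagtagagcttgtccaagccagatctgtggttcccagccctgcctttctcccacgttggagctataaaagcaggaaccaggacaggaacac
Ngp: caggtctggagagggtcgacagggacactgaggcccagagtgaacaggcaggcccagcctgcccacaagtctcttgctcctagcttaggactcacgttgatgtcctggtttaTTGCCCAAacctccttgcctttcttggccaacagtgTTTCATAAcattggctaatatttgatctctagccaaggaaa
Ltf: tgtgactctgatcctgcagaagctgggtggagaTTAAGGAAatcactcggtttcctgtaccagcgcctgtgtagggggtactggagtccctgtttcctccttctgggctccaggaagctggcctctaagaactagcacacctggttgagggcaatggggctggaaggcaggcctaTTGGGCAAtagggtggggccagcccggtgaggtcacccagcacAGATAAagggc

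The GATA letters were present in 4 of the 9 windows, once each in Cpa3, Mcpt4 and Ltf and 3 times in Ms4a2, and in 16.6% of all 32841 RefSeq promoter windows of that length. The C/EBP letters were present in 2 of the 9, 3 times in Ngp (1 of them beyond the part printed) and 2 times in Ltf, and in 36.9% of all windows. The Ltf window held both kinds. Every window printed held a match, while those of Cma1, Elane, Mpo and Camp held none. Of the 250 bases searched, 203 in Mpo and 161 in Camp lay inside the GENCODE gene. Ms4a2, with the most GATA matches, had the lowest level among the mast cell genes, and Cma1, at 13.2 TPM in pup 2 and 15.05 TPM in pup 1, had no match to either. These matches describe letters in a window and do not show binding.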

How the data were processed

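Per the file headers and the text deposited with each sample, the authors quantified each library on mm10 with GENCODE M4, in a table of genes and one of transcripts. The aligner and quantifier were not given in the sources used here. Expected counts, as deposited by the authors, estimate reads and are not scaled for depth. The TPM that the authors deposited are scaled to a fixed total over all features, spike-ins included, and carry a credibility interval (a signal bound on TPM in the deposited tables). The isoform percent in the deposited transcript tables is the share of a gene's TPM. The posterior SD of the count, an other measure that the authors deposited, shows how far reads were shared.

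Symbols and positions came from GENCODE M21 on the same assembly, matched without version (884 of 43346 IDs unmatched). Pup 2 was set over pup 1 as a log2 ratio after adding 1 to each TPM, which understates changes of low genes. Ratio intervals are exact Clopper-Pearson intervals of counts (95%), and like the floor of 3 counts (0.0600 and 0.0582 CPM in pups 2 and 1) they hold no more than counting error, because PCR copies are counted as reads. The call rule was tested on simulated data, but the outcome is not given here and does not measure variation between pups. TMM factors came from edgeR 4.0.16 and size factors from DESeq2 1.42.0, both on counts rounded to whole numbers and only as alternatives. Python 3.11.15, SciPy 1.17.1 and Biopython 1.88 did the rest. The sources used here give no strand setting.

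The members and the 18 further lists were chosen with earlier results of these data known. Named were all members, the 3 highest genes per list by mean TPM, genes at 0 counts that define a cell type and listed genes called different, and any other gene was picked once values were known. Likeness of pattern was not ranked, since 2 libraries give 1 ratio per gene.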

Additional observations from a re-analysis of the deposited data

How the results depend on the processing

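The number of members detected was 7 of 10 with either pup left out and with the posterior mean TPM, 10 at a TPM of at least 0.1 and 4 at a TPM of at least 5. The summed TPM of the mast cell genes ran from 42.25 to 43.52 and that of the neutrophil genes from 54.08 to 74.4 with either pup left out. Without Ltf, an alternative chosen after the data were seen, the neutrophil sum averaged 5.195 and not 64.2. The median log2 ratio of the neutrophil genes was -0.04, but 0.39 over the 3 with a mean TPM of at least 1 and -0.11 without Ltf. That of the mast cell genes stayed between -0.03 and 0.01. Single ratios of members kept their sign in 43 of 50 alternatives, and the exceptions were Cpa3, Mcpt4 and Tpsb2, whose ratios lay close to 0, under other scaling. The log2 ratio of Ltf ran from 0.45 to 0.49. The number of members called different was 0 at every planned setting and 1 with no fold limit. At 3-fold and at 1000 or more counts that 0 was fixed, since these settings are stricter than the main rule, which called none. Over all genes it was 59, and 228 at 1.5-fold, 13 at 3-fold, 158 with 10 or more counts on average, 10 with 1000 or more and 2955 with no fold limit. No paired analysis was possible because the labels name 1 group. Depth, at most 49 counts in a library, limits what can be said of Camp, Mpo, Elane and Ms4a2.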

Other observations

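The signals that recruit these cells, and the proteins that process granule contents, were described from lists chosen with earlier results known. Il33, an alarmin that activates mast cells, had 54.3 TPM in pup 2 and 46.4 TPM in pup 1, the chemokine Cxcl12 49.8 and 52.5 TPM, and the Kit ligand Kitl 11.8 and 16.9 TPM. The mast cell growth factors Il3 and Il9 had 0 counts in both pups, and Csf3, the growth factor of neutrophils, had 4 and 5. Of the 11 ligand genes 4 were detected. The neutrophil chemokine Cxcl1 had 10 counts in pup 2 and 28 in pup 1.

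Of 7 genes for granule maturation 6 were detected, although most are used in many secretory cells. Vamp8, a fusion protein of secretory vesicles, had 340 TPM in pup 2 and 316 TPM in pup 1, the GTPase Rab27b 73.55 and 71.2 TPM, and Ctsc, the protease that activates granule serine proteases, 55.6 and 56.4 TPM. Srgn, the core protein of granule proteoglycans, had 10.7 and 12.1 TPM. All 7 inhibitor genes were detected. Slpi, a secreted inhibitor of elastase, had 3765 TPM in pup 2 and 3731 TPM in pup 1, and Serpinb1a, an intracellular one, 57.8 and 66.3 TPM. The 5 Serpina1 genes, which liver makes, are close copies between which reads were divided, so their single values are uncertain. Serpina1a had 5.72 TPM in pup 2 and 2.98 TPM in pup 1, Serpina1b 5.0 and 3.33, Serpina1c 2.26 and 1.37, Serpina1d 3.51 and 2.17, and Serpina1e 4.86 and 4.29 TPM. Of the 7 inhibitor genes 6 had a higher TPM in pup 2, and none was called different, against 0.423% of all genes. Their median log2 ratio was 0.46, beside 0.03 over all detected protein-coding genes. For Slpi and Serpina1e the interval of the ratio of read shares included 1 (0.987 to 1.006 and 0.906 to 1.31). The liver genes, too, were all higher in pup 2 (5 of 5), and their part in these values was not tested. The level of Elane in the same libraries was 0.25 and 0.50 TPM.

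Eosinophil genes were close to absent from the reads. None of 8 was detected. Ear1 had 14 counts in pup 2 and 9 in pup 1, Epx 7 in each, Ear2 3 and 2, and Prg2 0 and 4. Prg3 and Il5ra had 0 counts in both pups. Their summed level was 0.90 TPM in pup 2 and 0.70 TPM in pup 1.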
